A study of Mus musculus with 24 samples.

Results

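The 9 genes described here encode subunits of the ionotropic glutamate receptors of the NMDA class (Grin1, Grin2a, Grin2b, Grin2d and Grin3a) and of the AMPA class (Gria1, Gria2, Gria3 and Gria4). They were taken by gene symbol from a table of 48709 genes, and each symbol matched 1 row. RNA sequencing had been run on dissected cerebral cortex and whole blood of mouse neonates whose dams inhaled nPM, a nano-sized fraction of ambient particulate matter collected beside a Los Angeles freeway, or filtered air. The labels call the filtered-air groups unexposed, and they are called control here. Cortex was represented by 12 libraries in 4 groups of 3: control females, nPM females, control males and nPM males.

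All the groups shared 1 inbred strain, given as C57BL/6J in the labels and as the 6NJ substrain in the study's methods, and no group carried an allele or an agent other than the nPM aerosol. Dams were exposed for 5 h/day on 3 days/week, from gestational day 2 in the labels, until birth. The nominal concentration was 300, with the unit printed as mg/m3 in the labels and as micrograms per cubic metre in the methods. Neonates were 3 to 5 days old by the sample labels and 5 days old by the protocol. The methods state that the 3 neonates of each sex and exposure came from different litters, but the labels do not tie a library to a litter or dam, so 2 libraries of opposite sex may share a mother. Library totals in cortex ranged from 25470666 to 33179851 counts in the control group and from 22301409 to 33804371 in the nPM group, and RNA integrity numbers (RIN) ranged from 9.4 to 9.8 and from 9.4 to 9.9. No pair of libraries within a group agreed within sampling noise. A gene with 3 counts stood at 0.0887 to 0.135 CPM (counts scaled to a common library size) in these libraries, far below every subunit. Because whole tissue was sequenced, fewer cells of a type and less RNA per cell cannot be told apart in any of the values below.

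NMDA and AMPA receptors are cation channels assembled from 4 subunits that open when glutamate binds. AMPA receptors carry most of the fast excitatory current, whereas NMDA receptors open only when the membrane is already depolarised and a co-agonist, glycine or D-serine, is bound, and they pass the calcium that drives synaptic plasticity. Every NMDA receptor holds the obligatory GluN1 subunit (Grin1) together with GluN2 or GluN3 partners. In the cortex of newborn rodents GluN2B (Grin2b) is the leading partner, GluN2A (Grin2a) increases after birth, GluN2D (Grin2d) is found early and in interneurons, and GluN3A (Grin3a) is a juvenile subunit that lowers calcium entry. GluA2 (Gria2) sets the calcium permeability of AMPA receptors, because an adenosine in its messenger is edited so that a genomic glutamine codon is read as arginine at the pore, the Q/R site.

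That codon and 12 coding bases on either side are shown for the AMPA subunits, since they hold the site at which Gria2 messenger is edited and show how alike the paralogs are where reads could be confused. The sequences are the mouse reference (GRCm38, Gencode transcripts) in the direction of the gene, with the Q/R codon in capitals.
Gria1: ggggccttcatgCAGcaaggatgtgac
Gria2: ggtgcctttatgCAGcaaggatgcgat
Gria3: ggtgcttttatgCAGcaaggatgtgat
Gria4: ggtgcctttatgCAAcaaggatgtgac
These stretches lie on chr11:57243082-57243108 (plus strand), chr3:80706899-80706925 (minus strand), chrX:41610253-41610279 (plus strand) and chr9:4464125-4464151 (minus strand), each within 1 coding exon. All 4 codons encode glutamine in the genome, and Gria4 spells it differently from the others. Over these 27 bases Gria2 and Gria3 were identical at 25 positions, Gria1 and Gria2 at 23. The deposited values are counts per gene and hold no base calls, so editing at this site was not measured. Despite the local similarity no run of 75 bases was shared between the annotated transcripts of any 2 of the 9 members, so reads of that length would not be split among them. The largest overlap with another gene was in Grin2a, of whose 75-base words 11.1% also occurred in Gm7328, a processed pseudogene on chromosome 8 that took 1 to 29 counts per cortex library against at least 3637 for Grin2a.

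In the mm10 coordinates of the deposited annotation, Grin1 lies at chr2:25291181-25319187, Grin2a at chr16:9567898-9995560, Grin2b at chr6:135713233-136173511, Grin2d at chr7:45831883-45878378 and Grin3a at chr4:49661611-49845744, all on the minus strand. Gria1 lies at chr11:57011387-57330244 and Gria3 at chrX:41400854-41678601 on the plus strand, and Gria2 at chr3:80681450-80802835 and Gria4 at chr9:4417896-4796234 on the minus strand. Their exonic lengths differ widely, from 6043 bases in Gria1 to 17933 in Grin2a and 24842 in Grin2b. The last is longer than 99.8% of the 20857 genes tested over all cortex libraries. Whether counting used the strand is not given in the sources used here. This bears most on Grin2d, which overlaps Kdelr1 (up to 1537 counts per cortex library) and the antisense gene Gm45441 (up to 123 counts) on the other strand, while Grin2d itself took 375 to 578 counts.

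The level of each subunit was compared per length, as TMM-scaled CPM per kilobase of exon. Gria2 and Gria1 were the most abundant messengers in control cortex, with medians of 54.3 and 51.9 over 6 libraries, and their control ranges (50.9 to 57.6 and 48.2 to 56.9) overlapped. Grin2b followed at a median of 36.9 (29.3 to 42.2), below both AMPA subunits and above every other subunit in all 12 libraries. Grin1 had a median of 21.4 and Gria4 of 18.2, with overlapping control ranges, and Gria3 (14.4) overlapped Grin3a (12.004), which overlapped Grin2a (11.7). Grin2d was last at 2.26 (1.89 to 2.66), apart from all others. The nPM libraries kept the same 3 leading subunits, with medians of 54.2, 53.2 and 32.4 for Gria2, Gria1 and Grin2b.

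**Figure D1:**
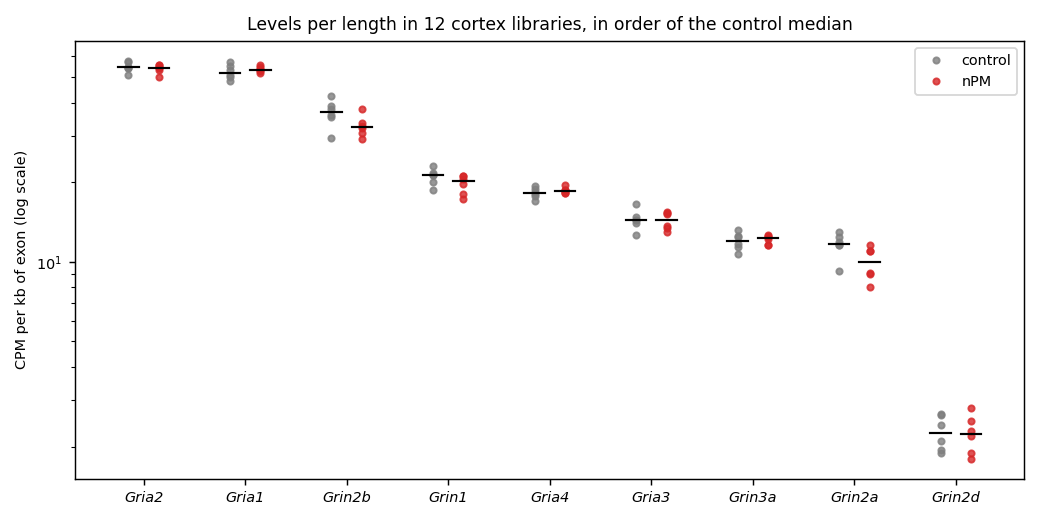
Level of each subunit per length (CPM per kb of exon, log scale) in 12 cortex libraries, ordered by the control median. Points are libraries (grey control, red nPM, 6 each) and short lines are medians. Gria2 and Gria1 lie near 54.3 and 51.9 in control cortex and Grin2d near 2.26.

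Grin2b exceeded Grin2a in every library, which is the usual order in newborn cortex. The ratio of Grin2b to Grin2a per length had a median of 3.27 in control libraries (2.36 to 3.80) and 3.42 in nPM libraries (2.88 to 3.62). The lowest ratio, 2.36, was in control male replicate 3, which also had the lowest Grin2b level of the control libraries (729 CPM) together with the highest Grin1 (224 CPM) and Gria3 (163 CPM). The same library held the highest sum over the 7 oligodendrocyte lineage markers, at 744 CPM where the other 11 libraries ranged up to 594. It also held the highest sums of astrocyte (1445 CPM), microglial (262 CPM), endothelial (136 CPM) and cortical excitatory markers (1190 CPM). The part of that library's cell makeup in its subunit ratio was not tested.

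Prenatal nPM exposure was first compared with control over all 12 cortex libraries, with sex and RIN as covariates (edgeR quasi-likelihood test). No subunit passed either the unadjusted cutoff of 0.005 that the study used or an adjusted p of 0.05. Among the 20857 genes tested, 0.614% passed the first and 0.0144% the second. At an unadjusted p under 0.05, 1 of 9 subunits was lower and none was higher, against 2.94% of all genes lower and 5.67% in either direction. Of the 9 fold changes 6 were negative and 3 positive, with a median of -0.03 on the log2 scale.

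Grin2a, the maturing GluN2 subunit, came nearest to the cutoff. It measured 166 to 232 CPM in the control libraries with a median of 210.1, and 144 to 208 CPM in the nPM libraries with a median of 179.7. The groups overlapped, with 3 of the 6 nPM libraries below the lowest control library. The log2 fold change was -0.22 ± 0.09 (SE), with an adjusted p of 0.862 by edgeR.

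Grin2b measured 729 to 1049 CPM in controls (median 916) and 724 to 936 CPM in nPM libraries (median 804). Its log2 fold change was -0.16 ± 0.08 (adjusted p = 0.862, edgeR), and the lowest control library, male replicate 3, lay within the nPM range. Without that library the log2 fold change of Grin2b was -0.22, with an adjusted p of 0.360. The cortex libraries were split over lane 2 (4 per exposure) and lane 3 (2 per exposure). In lane 2 Grin2b measured 873 to 966 CPM in controls and 724 to 830 CPM in nPM libraries, without overlap. In lane 3 it measured 729 to 1049 CPM and 812 to 936 CPM. The share of all genes whose groups did not overlap was not computed within a lane. Grin1 measured 182 to 224 CPM in controls (median 207) and 167 to 205 CPM in nPM libraries (median 195), for a log2 fold change of -0.10 ± 0.06. An exact two-sided permutation test of the 6 against 6 CPM values gave p = 0.0563 for Grin2a, 0.0952 for Grin2b and 0.149 for Grin1.

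The other 6 subunits differed little between the exposures over all 12 libraries. Grin2d, at 12.6 to 17.7 CPM in controls and 11.99 to 18.6 CPM in nPM libraries, had a log2 fold change of -0.03 ± 0.11. Its direction differed between the lanes. In lane 2 it ranged over 14.1 to 17.7 CPM in controls and 11.99 to 15.3 CPM in nPM libraries. In lane 3 the nPM libraries were higher, at 12.6 to 12.96 CPM in controls and 16.7 to 18.6 CPM in nPM libraries. Grin3a ranged over 131 to 161 CPM and 142 to 154 CPM, and its log2 fold change was 0.03 ± 0.05. Among the AMPA subunits, Gria1 ranged over 292 to 344 CPM in controls and 312 to 334 CPM in nPM libraries, and Gria2 over 791 to 895 CPM and 778 to 862 CPM. Gria3 ranged over 124 to 163 CPM and 127 to 152 CPM, and Gria4 over 107 to 122 CPM and 115 to 123 CPM. The 4 AMPA fold changes lay between -0.03 and 0.03 on the log2 scale, with standard errors of 0.04 to 0.06.

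**Figure D2:**
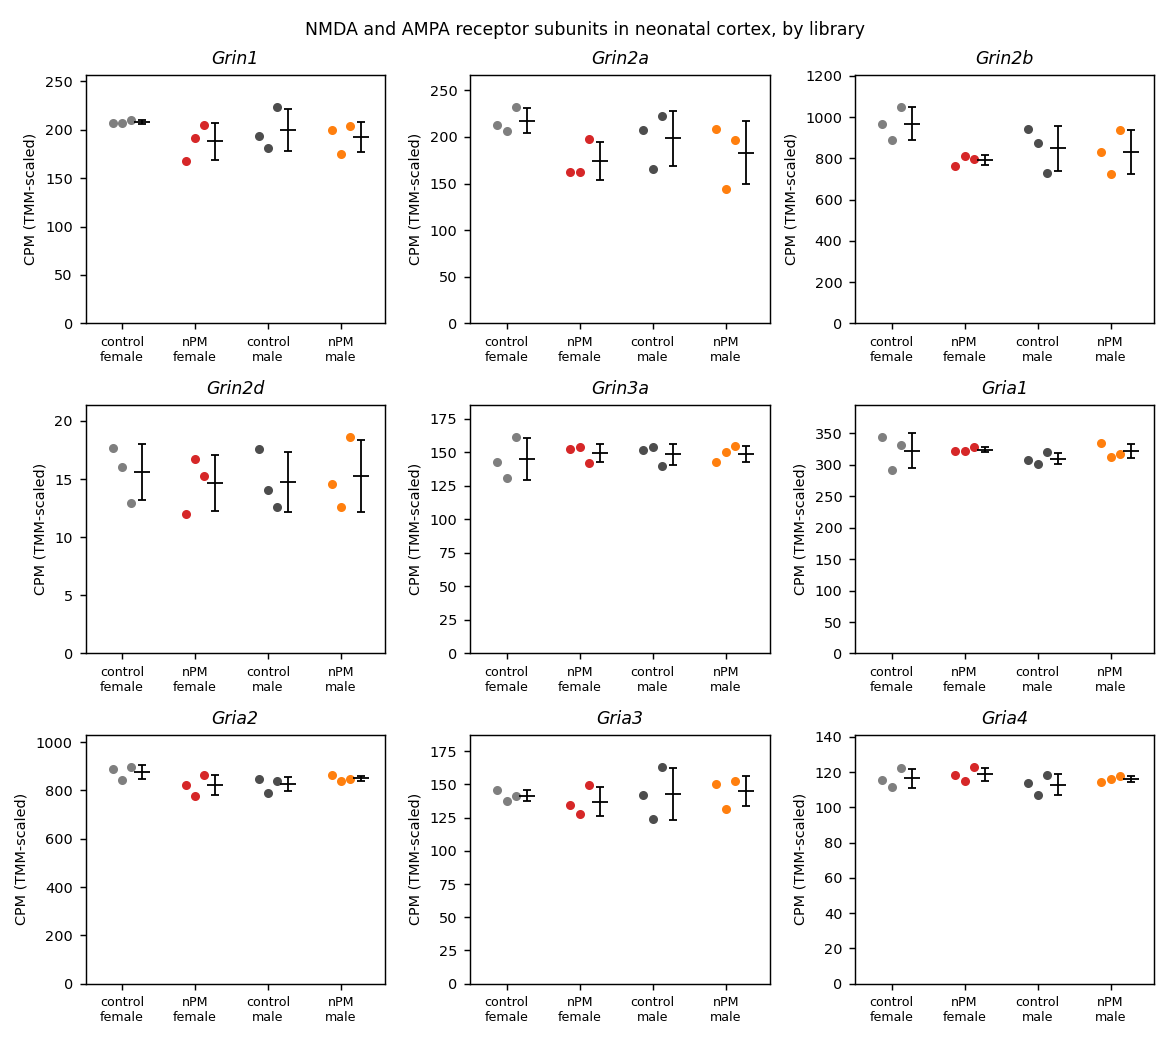
TMM-scaled CPM of each subunit in the 12 cortex libraries, with 3 libraries per group as points and the mean ± SD beside them. In Grin1, Grin2a and Grin2b the 3 nPM female libraries all lie under the 3 control female libraries, and the male groups overlap for every subunit.

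The sexes were then compared separately, with RIN as covariate. In females, 2 of 9 subunits, Grin2a and Grin2b, were lower in nPM cortex at the unadjusted cutoff of 0.005. Of the 21731 genes tested in females 4.02% passed that cutoff, 2.83% in the lower direction. None of the 9 passed an adjusted p of 0.05, which 1.11% of all genes did. At an unadjusted p under 0.05 the count of subunits stayed at 2, where 15.4% of all genes passed. By 2 other tools the count at an adjusted p of 0.05 was 2 (DESeq2) and 1 (limma voom). DESeq2 called 443 and limma voom 226 of all 21731 genes, where the main fit called 241.

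Grin2b, the leading GluN2 subunit at this age, measured 966, 889 and 1049 CPM in the control females. The nPM females measured 796, 765 and 812 CPM, each below the lowest control. The log2 fold change was -0.29 ± 0.07 (SE, edgeR adjusted p = 0.0566, unadjusted p = 0.000781). Leaving out 1 of the 6 female libraries at a time gave adjusted p-values of 0.0620 to 0.312.

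For Grin2a the control females measured 213, 207 and 232 CPM. The nPM females measured 198, 163 and 162 CPM, again without overlap. The log2 fold change was -0.33 ± 0.08 (edgeR adjusted p = 0.0637, unadjusted p = 0.000998). With nPM female replicate 1 left out, the highest of its group, the adjusted p was 0.00719, and over the 6 such fits it ranged from 0.00719 to 0.303. Without control female replicate 3, which held the highest values of both genes, neither Grin2a nor Grin2b passed the unadjusted cutoff, with fold changes of -0.26 and -0.18.

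Grin1, the obligatory subunit, measured 207, 207 and 210.4 CPM in the control females and 205, 167 and 192 CPM in the nPM females. The groups did not overlap, although 1 nPM library lay just under the lowest control. The log2 fold change was -0.14 ± 0.06 (adjusted p = 0.330, edgeR), and it was -0.07 without nPM female replicate 2 and -0.20 without nPM female replicate 1. In females 21.1% of all genes tested had groups that did not overlap, 11.2% with nPM lower, so 3 such subunits of 9 are to be read against that share. An exact permutation test of 3 against 3 libraries cannot go below p = 0.1, the value of all 3 genes.

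The remaining NMDA subunits did not follow in females. Grin2d measured 17.7, 16.1 and 12.96 CPM in controls and 15.3, 11.99 and 16.7 CPM in nPM females, for a log2 fold change of -0.02 ± 0.09. Grin3a measured 143, 131 and 161 CPM and 142, 153 and 154 CPM, for a log2 fold change of 0.04 ± 0.07. Among the AMPA subunits the lowest estimate was that of Gria2, which measured 887, 841 and 895 CPM in controls and 862, 824 and 778 CPM in nPM females, for a log2 fold change of -0.10 ± 0.06 (adjusted p = 0.450, edgeR). Gria1, Gria3 and Gria4 lay between -0.05 and 0.02. Summed over the 5 NMDA subunits, control females held 1547, 1450 and 1666 CPM and nPM females 1357, 1259 and 1337 CPM, so the summed level did not overlap. This sum is not per length, and most of it was Grin2b, at 889 to 1049 CPM in control and 765 to 812 CPM in nPM females. It therefore largely repeats the Grin2b result, and no share of non-overlap was computed for sums. The sum over the 4 AMPA subunits overlapped, at 1382 to 1491 CPM and 1342 to 1463 CPM.

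In males no subunit passed either threshold, and none had an unadjusted p under 0.05, where 0.318% of 21670 genes passed 0.005 and 4.51% passed 0.05. No gene passed an adjusted p of 0.05 in males. Grin2a measured 207, 166 and 223 CPM in control males and 208, 144 and 197 CPM in nPM males, a log2 fold change of -0.16 ± 0.15, which ranged from -0.47 without nPM male replicate 3 to -0.04 without nPM male replicate 2. Grin2b measured 942, 873 and 729 CPM and 830, 724 and 936 CPM, and the fitted log2 fold change was 0.05 ± 0.12. The mean CPM of Grin2b was lower in nPM males, 829.8 against 848 in control males. The sign of its fit was not stable, at -0.03 without RIN, -0.01 in the model over both sexes, -0.04 with the length trend removed, and from -0.07 (without nPM male replicate 3) to 0.23 (without control male replicate 1) with a library left out. Grin1 measured 194, 182 and 224 CPM and 199, 175 and 204 CPM, with a log2 fold change of -0.06 ± 0.10. Every subunit had overlapping male groups, but the share of all genes without overlap is given here for females only, so the 2 counts are not compared.

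The difference in effect between the sexes was tested as an nPM by sex interaction over the 12 libraries. No subunit passed an unadjusted p of 0.05, where 9.68% of all genes did. Grin2b had the smallest p, with an interaction of 0.29 ± 0.15 on the log2 scale, male effect minus female effect (unadjusted p = 0.0716, adjusted p = 0.562, edgeR). That of Grin2a was 0.20 ± 0.19. When the female effect was taken from this model, which estimates the spread over both sexes, the fold changes were -0.32 for Grin2a and -0.30 for Grin2b, and neither passed the cutoff of 0.005. Males and females also did not differ in the level of any subunit at an unadjusted p of 0.05, which 6.09% of all genes passed, and the 9 log2 differences ranged from -0.09 to 0.04. Gria3, the X-linked member, had a male minus female difference of 0.03 ± 0.07.

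**Figure D3:**
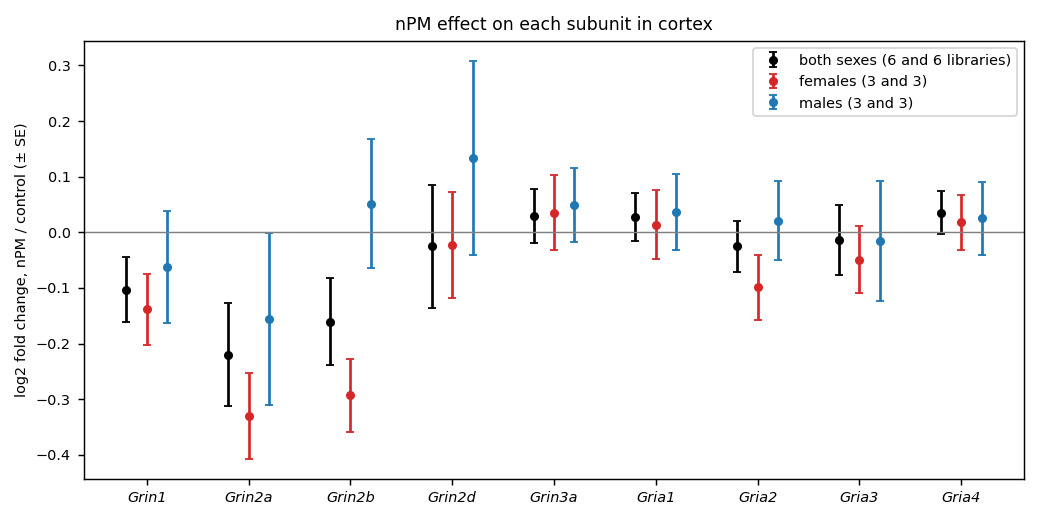
Log2 fold change of nPM over control (± SE) for each subunit in both sexes together (black, 6 and 6 libraries), in females (red, 3 and 3) and in males (blue, 3 and 3). Grin2a at -0.33 and Grin2b at -0.29 in females stand farthest from 0.

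Exonic length moved with the fold changes, and Grin2a and Grin2b are among the longest genes. Among genes with a mean of at least 100 counts, those over 12000 exonic bases had a median log2 fold change of -0.09 in females, and 83.7% of these 680 genes were lower in nPM. In males the same length class had a median of 0.07, with 22.1% of 678 genes lower. The trend was visible in single libraries: the slope of log2 CPM per doubling of exonic length, relative to the mean of all libraries, was 0.0274, 0.0233 and 0.0400 in the control females and 0.00151, -0.0210 and -0.0108 in the nPM females. In control males it was -0.0237, -0.00206 and -0.0331, and in nPM males -0.00177, -0.0202 and 0.0205.

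With each library's length trend taken out, an alternative added after the data had been seen, the female log2 fold changes were -0.22 for Grin2a (adjusted p = 0.181, edgeR), -0.15 for Grin2b (adjusted p = 0.242) and -0.09 for Grin1, and none passed the cutoff of 0.005. In males the same fit gave -0.24 for Grin2a (adjusted p = 0.995, edgeR), -0.04 for Grin2b and -0.10 for Grin1. The Grin2b interaction became 0.09 and that of Grin2a 0.03. Set beside genes of like exonic length (within 1.5 times), 2.57% of 661 genes had a lower female fold change than Grin2a, 10.5% of 219 genes had a lower one than Grin2b, and 21% of 2984 genes had a lower one than Grin1. Gria2, at 15548 bases, stood near the middle of its length class, with 40.5% of 982 genes lower, and Grin3a, at 12275 bases, stood above most of its class, with 82.8% of 1885 genes lower. In males 1.52% of 659 genes of like length had a lower fold change than Grin2a. The male shares were 33.5% of 218 genes for Grin2b and 15.4% of 2993 genes for Grin1.

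**Figure D4:**
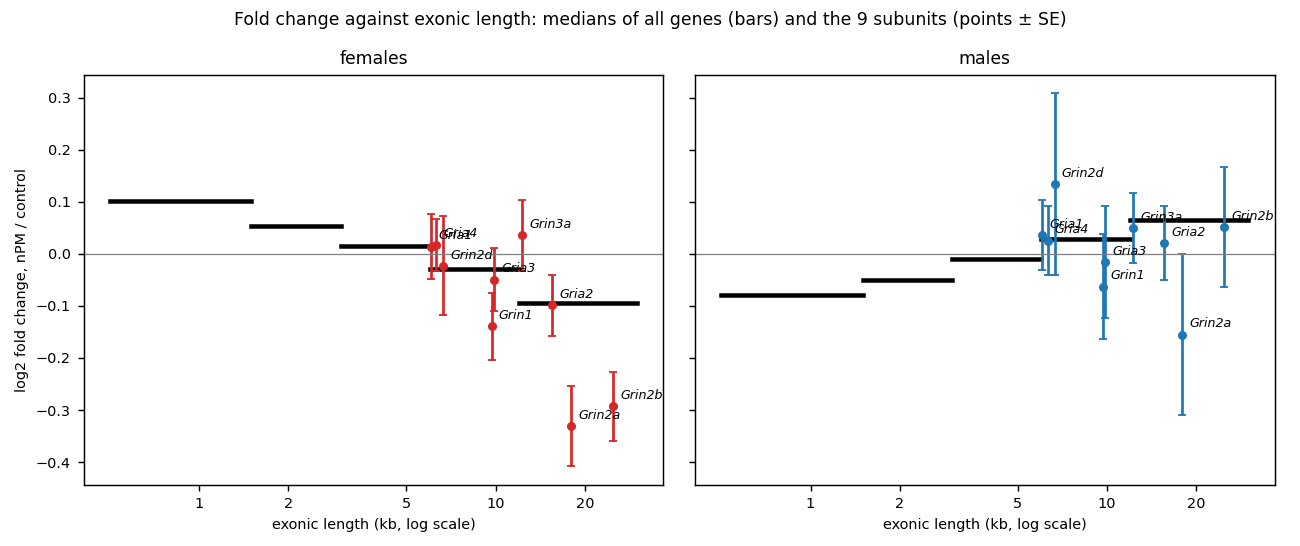
Log2 fold change of nPM over control against exonic length (log scale) in females and males. Black bars are medians of all well-counted genes in 5 length classes and points are the subunits (± SE). In females the medians descend to -0.09 above 12000 bases with Grin2a and Grin2b below them, and in males they ascend to 0.07.

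Marker genes of neighbouring tissue also moved with exposure. All 9 markers of cortical excitatory neurons were detected, and their summed level was 1034 to 1090 CPM in control females and 995 to 1014 CPM in nPM females, without overlap, with 6 of 9 genes lower. In males the sums were 1044 to 1190 and 939 to 1052 CPM and overlapped, with 7 of 9 genes lower. The log2 ratio of the mean sums, nPM to control, was -0.08 in females and -0.13 in males. Over both sexes 8 of the 9 excitatory markers were lower, 2 of them at an unadjusted p under 0.05 (edgeR). The 8 pan-neuronal markers summed to 6839 to 7744 CPM in control females and 7383 to 7779 CPM in nPM females. The 6 hippocampal markers summed to 182 to 252 CPM in control females and 177 to 200 CPM in nPM females, with overlap. In females 4 of these 6 were lower, and the highest sum, 252 CPM, was in control female replicate 3. In males the hippocampal sums were 168 to 179 and 174 to 203 CPM and overlapped. Of the 12 genes listed for hypothalamus and amygdala, 8 were tested and all 8 were higher over both sexes, 5 of them past the unadjusted cutoff. These were Calb2 (log2 fold change 0.49), Ecel1 (0.83), Hap1 (0.41), Gpr101 (1.08) and Zcchc12 (0.40), and the last pair also passed an adjusted p of 0.05 (0.0441 for both, edgeR). That list summed to 133 to 213 CPM in the control group and 180 to 281 CPM in the nPM group, and 2 of its defining genes, Oxt and Otp, did not exceed 3 counts. Interneuron markers were higher for 11 of 12 genes, with sums of 348 to 491 and 417 to 478 CPM, and Gad1, which makes GABA, passed the unadjusted cutoff at 0.26. Striatal markers had positive fold changes for 7 of 8 genes over both sexes. Their sums were 230 to 354 CPM in control males and 359 to 407 CPM in nPM males, but overlapped in females at 289 to 485 CPM in control and 348 to 394 CPM in nPM libraries. Choroid plexus markers had positive fold changes for 6 of 6 genes and cycling progenitor markers for 7 of 7. Control male replicate 1 stood apart in both lists, with a choroid plexus sum of 32.8 CPM where the other 11 libraries held 237 to 510, and the lowest cycling progenitor sum, 131 CPM. It also had the lowest endothelial sum, 88.5 CPM against 122 to 136 in the others, and endothelial markers were positive for 5 of 6 genes over both sexes and 6 of 6 in males. Microglial markers were negative for 6 of 8 genes over both sexes and for 8 of 8 in males, with overlapping sums in both sexes. Within 1 sex the marker genes past that cutoff also included Ttr of the choroid plexus in females (0.32) and Bcl11b of the cortical excitatory list in males (0.30). Bcl11b went against its list in males, where 7 of the 9 genes were lower, with a median of -0.11. Between the sexes, Gad1, Ecel1, Gpr101, Hap1 and Zcchc12 were lower and Neurod6 was higher in males past the same cutoff. The part of these shifts in the subunit values was not tested.

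Ratios among the subunits do not depend on library size. Per length, the 5 NMDA subunits together amounted to 0.588 to 0.629 of the 4 AMPA subunits in control females and to 0.514 to 0.570 in nPM females, so these groups did not overlap. In males the ratio was 0.549 to 0.614 and 0.505 to 0.603. Gria2 made up 38.8 to 40.4% of the AMPA messenger in control females and 37.2 to 38.4% in nPM females, without overlap, and 38.0 to 39.5% and 38.5 to 39.3% in males. The ratio of Gria4, a subunit rich in interneurons, to Gria2 was 0.321 to 0.336 in control females and 0.351 to 0.365 in nPM females, whereas over both sexes the exposure groups overlapped. In these 3 ratios the longer messengers stand on the side that was lower in females, and the share of the length trend in them was not tested. Grin2b to Grin2a overlapped in both sexes. So did the other ratios taken: Grin2d to Grin2b, Grin3a to Grin1, Grin2a plus Grin2b to Grin1, and Gria1 to Gria2. Among single genes in females, 21.1% of all those tested had groups that did not overlap, and no such share was computed for ratios.

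**Figure D5:**
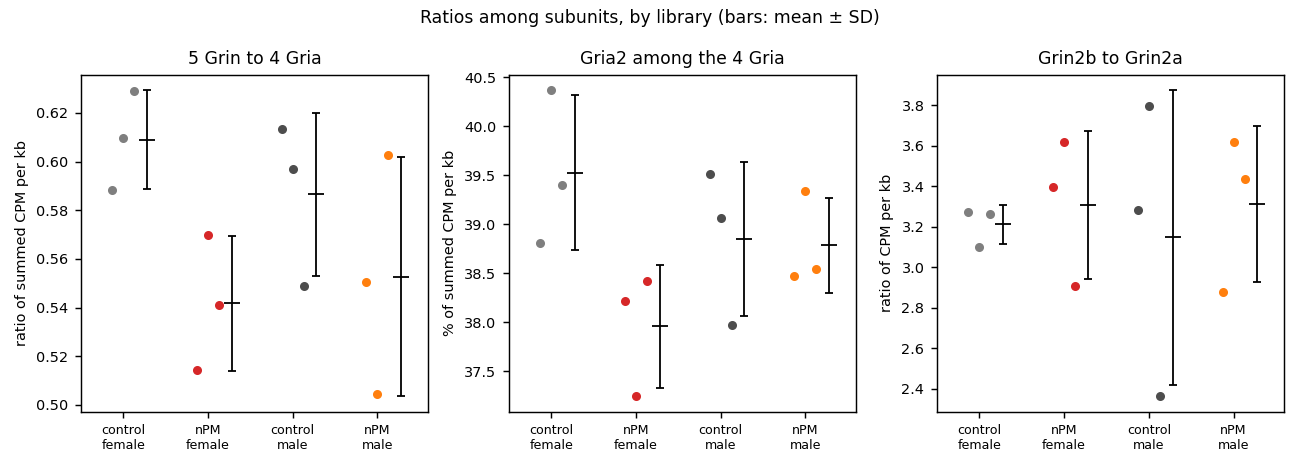
Ratios among subunits per library, in CPM per kb of exon, with the mean ± SD of 3 libraries per group. The 5 NMDA to 4 AMPA ratio is 0.588 to 0.629 in control females and 0.514 to 0.570 in nPM females, and Grin2b to Grin2a overlaps in both sexes.

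The partners of these receptors gave few calls. Of 17 scaffold and trafficking genes, 1 passed the unadjusted cutoff over both sexes, and 5 of 17 were higher. It was Camk2d, the delta isoform of the calcium and calmodulin dependent kinase that NMDA receptor calcium activates. In females it measured 104 to 116 CPM in control and 127 to 139 CPM in nPM libraries, without overlap. Its log2 fold change was 0.27 ± 0.05 in females (adjusted p = 0.0325, edgeR) and 0.25 ± 0.07 over both sexes (adjusted p = 0.779), and it was 0.18 ± 0.13 in males. The female call was lost in 5 of 16 alternatives, with an adjusted p of 0.329 in the edgeR model over both sexes and of up to 0.173 in the 4 such fits without 1 library (control replicate 1 or 2, nPM replicate 2 or 3).

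Auxiliary subunits bind AMPA and kainate receptors and set their trafficking and gating. Over both sexes 14 of 16 had negative fold changes, with a median of -0.06 against -0.00242 for all genes, and none passed the cutoff. The smallest p was that of Prrt1, an AMPA receptor partner, at a log2 fold change of -0.19 ± 0.09. In females 1 passed, Shisa7, also an AMPA receptor partner, at 43.6 to 48.5 CPM in control and 33.8 to 41.2 CPM in nPM libraries and a log2 fold change of -0.27 ± 0.06 (adjusted p = 0.0520, edgeR). In males Shisa7 had a log2 fold change of 0.21 ± 0.09 (adjusted p = 0.962).

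Among the 7 kainate and delta receptor subunits, 6 had negative fold changes in females and all 7 had positive ones in males in the fits with RIN. In males the unadjusted means of Grik5 and Grik3 lay the other way, at 77.3 CPM in control and 75.5 CPM in nPM libraries for Grik5 and 96.3 and 91.7 CPM for Grik3. Grik5 passed the unadjusted cutoff in females at -0.24 ± 0.06 (adjusted p = 0.0648, edgeR) and Grik2 in males at 0.25 ± 0.06 (adjusted p = 0.962). Neither had an interaction past an adjusted p of 0.05, with 0.20 ± 0.16 for Grik5 and 0.24 ± 0.09 for Grik2. The median of the list was -0.10 in females and 0.05 in males.

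Of the 3 RNA editing enzymes none passed over both sexes, and Adarb1, which edits the Q/R site of Gria2, was not called in any comparison. Adarb2, a brain-specific paralog without known editing activity, was at 24.5 to 26.4 CPM in control males and 28.4 to 32.6 CPM in nPM males, a log2 fold change of 0.36 ± 0.09 (adjusted p = 0.962, edgeR). In none of the remaining lists did a gene pass the unadjusted cutoff over both sexes. The smallest p among 6 glutamate transporters was that of Slc17a6, the vesicular transporter of subcortical neurons (0.12 ± 0.05). Among 6 factors of AMPA receptor assembly in the endoplasmic reticulum it was that of Frrs1l (-0.09 ± 0.06), among 7 metabotropic receptors that of Grm5 (0.05 ± 0.04) and among the 3 tested genes of glycine and D-serine supply that of Slc7a10 (-0.07 ± 0.07). Of the 2 NMDA subunits outside the 9, Grin2c and Grin3b, the smaller p was that of Grin3b, which lay at only 0.0293 to 0.393 CPM and is given no fold change. Together they summed to 2.39 to 7.24 CPM per library, nearly all of it Grin2c.

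The genes whose log2 CPM most resembled each subunit over the 12 cortex libraries were listed by Pearson's r among 15699 genes, as a description. Those nearest to Grin2a were Kcnk9 (r = 0.96, Spearman's rho 0.94) and Prickle2 (r = 0.96, rho 0.89), and those nearest to Grin1 were Mink1 (r = 0.93, rho 0.83) and Kalrn (r = 0.92, rho 0.93). Grin2b was closest to Gm45201 and Gm37777, loci of the TEC annotation class on chromosomes 7 and 1, at a mean of 3.53 and 3.599 CPM (r = 0.97 for both). For Grin2d they were Eif4g3 and L3mbtl1 (r = 0.93 and 0.92) and for Grin3a N4bp2os and Pde9a (r = 0.89 and 0.87). For the AMPA subunits they were Fgf5 and Nr3c2 (Gria1, r = 0.90 and 0.89), Ptpn4 and Lmf1 (Gria2, r = 0.95 and 0.93), P2ry12 and Klf13 (Gria3, r = 0.95 and 0.94) and 4833422C13Rik and Ddc (Gria4, r = 0.94 and 0.87). The closest pair of members was Grin1 and Grin2a (r = 0.87, rho 0.85). The points share lanes, depth and cell makeup, and each gene is the highest of all those compared.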

How the data were processed

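Per the labels and the study's methods, RNA was made into ribosome-depleted libraries (Illumina RiboZero Gold, HiSeq 3000). The authors trimmed reads where needed with Trimmomatic after FastQC, aligned them to mm10 with HISAT2 and counted genes of Gencode M11 with featureCounts 1.5.0-p3, per the submitters' processing notes. The deposited table holds whole-number counts per gene, not normalized. A second deposited table gives positions, the exonic length and the authors' mean RPKM over all libraries, and that RPKM was not used for any result. Here counts were scaled by TMM and tested with edgeR 4.0.16 (quasi-likelihood F-test, Benjamini-Hochberg adjustment over all genes tested) on genes counted at least once in each library entering a fit. Covariates were sex and RIN over both sexes, with an nPM by sex term for the interaction, and RIN within 1 sex. CPM in the text is TMM-scaled, log2 CPM used a prior count of 0.5, and single values were compared by exact two-sided permutation tests. The pipeline was tested on simulated data. Alternatives were DESeq2 1.42.0, limma voom 3.58.1, RLE factors, other filters on low counts, no RIN, lane added, each library left out and the length trend removed.

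The members and all gene lists were chosen with earlier results of these data known. Named besides the members were list genes past an unadjusted p of 0.005 in any cortex comparison, the gene of smallest p in each pathway list over both sexes, and the 2 genes most like each member with a mean of at least 1 CPM. Only some of the marker lists are given. Samples were grouped by the labels, and every value column matched a library. The tests set each difference against the spread between libraries, with neonates treated as independent. The spread between dams, to which the exposure was given, was not estimated. Blood was used only for the level of the members.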

Additional observations from a re-analysis of the deposited data

Results flagged for a closer look

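Blood entered no comparison above, and the subunits were close to absent there. Summed over the 9 members, blood libraries held 0.0492 to 25.4 CPM, where cortex libraries held 2629 to 3158 CPM. The highest value was in 1 nPM male blood library, at 25.4 CPM (468 counts), above the highest control blood library at 10.1 CPM (213 counts). All 9 members were detected in these 2 and in other blood libraries of both exposures. Gria3 took 146 of the counts in that control library and 21 in that nPM library. The source of these counts was not tested. Within the cortex groups of 6 libraries, none of 34 sets of member levels and ratios held a value far from the rest by Dixon's criterion. None of the 9 nPM by sex interactions had an unadjusted p under 0.05.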

How the results depend on the processing

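No paired analysis was possible because the replicate numbers were given in accession order and the labels tie no library to a litter or dam.

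Over both sexes, the count of subunits past an adjusted p of 0.05 moved from 0 to 1 (Grin2a, adjusted p = 0.0109 by edgeR) when genes with a count in any library were kept, and 185 genes were then called in place of 3. That filter also moved the count past an unadjusted p of 0.005 from 0 to 2, and the interaction count from 0 to 1. For the interaction, 379 of all genes then passed an adjusted p of 0.05 in place of 0. The share of all genes past 0.005 was not computed for any alternative, so these counts of subunits have no share beside them. Leaving out 1 library gave 0 to 1 past 0.005 and 0 to 1 subunits with an exact permutation p under 0.05 (6 against 6). The single subunit past 0.005 was Grin2a without control male replicate 2 and Grin2b without control male replicate 3, and the exact test gave 1 subunit without either of these or without nPM male replicate 1 or 3. In females the count past an adjusted p of 0.05 moved from 0 to 2 by DESeq2, to 1 by limma voom and to 2 with the any-library filter. It moved to 2 without RIN and to 1 with lane added, and ranged over 0 to 1 with a library left out. The genes called among all those tested also changed, from 241 to 443 by DESeq2 and 226 by limma voom. They numbered 1280 of 30569 with the any-library filter, 333 without RIN and 276 with lane added. The female count past 0.005 moved from 2 to 0 with the length trend removed and to 0 in the model over both sexes, and ranged over 0 to 3 with a library left out. It was 3 without nPM female replicate 1, 1 without control female replicate 1, nPM female replicate 2 or nPM female replicate 3, and 0 without control female replicate 3. In that order, these fits called 383, 42, 23, 67 and 66 of all genes at an adjusted p of 0.05. The female fold changes of Grin2a and Grin2b stayed negative under every alternative run. The counts for males and for the sex difference remained 0 throughout. The cause of these shifts was not tested.

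With 3 libraries per sex and exposure, no exact test within a sex can go below p = 0.1. Adjusted p-values for Grin2a and Grin2b lay near 0.05 in females and moved across it with the tool and the filter, so their calls rest on that choice. Grin2d, at 375 to 578 counts, is the least precisely measured member.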
